A study of Mus musculus with 116 samples.

Results

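The genes described here are 9 inflammatory mediators of myeloid cells: the cytokine Il1b and its antagonist Il1rn, the cytokine Tnf, the chemokines Ccl3, Ccl4, Cxcl2, Ccl6 and Ccl9, and Ccrl2, a chemokine receptor-like protein. Ccl3, Ccl4, Ccl6 and Ccl9 all lie on chromosome 11. Each gene was found by its current symbol and each lay on 1 probe. So 9 of 21797 tested probes (of 15097 gene symbols) are described, in every condition and every comparison of the series. RNA came from FDB1, a mouse myeloid line that needs added growth factor to live. V449E cells and FI-Delta cells are FDB1 carrying the receptor mutant of that name, grown with 10% serum and IL-3 at 500 U/mL, then washed and left without factor. Both mutants are known as always-active forms of the common beta receptor chain that GM-CSF, IL-3 and IL-5 share. Parental FDB1 cells were kept in that medium before a move to GM-CSF at 500 U/mL, and parental cells at 0 h are read as cells still in IL-3, from the design text and the titles. Their source labels differ, naming GM-CSF on the arrays of print run 1 and IL-3 on those of print run 2. Replicate 1 had 14 of its 16 arrays at 0 h on run 1 and replicate 2 had 14 of 16 on run 2. So this label, the run and the replicate largely coincide at the baseline of every GM-CSF comparison. Each line was sampled at 0, 6, 12, 24, 48 and 72 h, which makes 18 conditions of 2 RNAs each, measured on 116 2-colour arrays that form 58 dye-swap pairs. Neither the source of the 2 replicates (separate cultures or one) nor the number of clones in a mutant line is given, so p-values reflect only how far these RNAs differed.

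Interleukin-1 beta, encoded by Il1b, is made as an inactive precursor by monocytes, macrophages and neutrophils, and Il1rn encodes the antagonist that occupies the same receptor without signalling. TNF acts beside it, and both drive the NF-kB pathway that in turn induces many chemokine genes. Ccl3 and Ccl4 (MIP-1 alpha and MIP-1 beta) are neighbouring, quickly induced chemokines, and Ccl3 signals through Ccr1; Cxcl2 (MIP-2) attracts neutrophils through Cxcr2; Ccl6 and Ccl9 are mouse CC chemokines made by myeloid cells without a stimulus. Ccrl2 binds the chemoattractant chemerin without signalling itself and is induced in activated macrophages and neutrophils.

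The upstream sequences of 4 genes are shown. Ccl3 and Cxcl2 had their highest mean level of each line at 6 h, a rise that was called in no line. Ccrl2 rose in the most comparisons, and Ccl9 was the member called higher where 7 others were called lower. The sequences are the 250 bases before the annotated start in RefSeq (GRCm38.p6, 5′ to 3′). Matches to the kappaB consensus on either strand are in capitals, overlapping matches joined. Of the 9 genes, 8 had an entry, with 12 start sites; Ccl4 had none. The first start listed is given for Ccrl2.
Ccl3, chr11:83649379-83649628, minus strand: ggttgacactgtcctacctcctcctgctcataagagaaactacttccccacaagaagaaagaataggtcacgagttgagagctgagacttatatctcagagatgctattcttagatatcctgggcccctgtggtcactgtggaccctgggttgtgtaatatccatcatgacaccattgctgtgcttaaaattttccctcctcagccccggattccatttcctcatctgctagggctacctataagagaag
Cxcl2, chr5:90903649-90903898, plus strand: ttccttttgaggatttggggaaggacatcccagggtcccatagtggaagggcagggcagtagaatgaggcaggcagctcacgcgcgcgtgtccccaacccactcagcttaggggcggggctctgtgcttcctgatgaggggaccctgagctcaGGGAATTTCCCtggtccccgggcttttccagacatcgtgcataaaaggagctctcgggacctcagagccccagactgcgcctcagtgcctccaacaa
Ccrl2, chr9:111057519-111057768, minus strand: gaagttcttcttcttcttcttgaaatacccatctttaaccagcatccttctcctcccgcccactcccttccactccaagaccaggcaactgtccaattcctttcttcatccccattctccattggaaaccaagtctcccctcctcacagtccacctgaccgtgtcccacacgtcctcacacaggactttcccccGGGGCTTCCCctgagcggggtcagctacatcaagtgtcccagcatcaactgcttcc
Ccl9, chr11:83578637-83578886, minus strand: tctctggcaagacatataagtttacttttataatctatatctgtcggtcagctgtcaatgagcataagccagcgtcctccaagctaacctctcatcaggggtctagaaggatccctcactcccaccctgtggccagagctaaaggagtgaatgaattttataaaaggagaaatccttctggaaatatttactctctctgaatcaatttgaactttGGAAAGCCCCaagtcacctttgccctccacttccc
Cxcl2 held a pair of overlapping matches that begin 97 and 96 bases before its start, Ccrl2 held 1 at 56 bases and Ccl9 held 1 at 35 bases, read on the opposite strand. The other entries, including those of Il1b, Tnf, Ccl3 and Ccl6, had no match to these letters in this window. So 3 of the 12 start sites, each of a different gene, held a match, and of 32851 promoters of the same length in the table a match was present in 7.25%. A further 4 patterns were searched on both strands. TTNNGNAA, a C/EBP pattern, was found at 7 of the 12 start sites (1 each of Il1b, Tnf, Ccl3, Cxcl2 and Ccl9 and 2 of the 3 of Il1rn; 36.8% of all promoters), in Ccl9 once overlapping the kappaB match. GAGGAA, an ETS pattern, was found at 2 of 12, in Tnf and Ccl3 (23.3% of all), TGANTCA, an AP-1 pattern, at 2 of 12, in Il1rn and Ccl9 (6.75%), and TTCNNNGAA, a STAT pattern, for none of the 12 (7.02%). These matches are descriptions of the letters only, and the 12 windows are not all separate. Those of Il1rn starts 2 and 3 overlap and hold the same TTGGGGAA, 81 bases before one start and 161 before the other. The windows of Ccrl2 starts 2 and 3 overlap as well.

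Levels below are log2 values relative to the mean of the 18 conditions of the same replicate, in the order replicate 1 and replicate 2. Differences are log2 values too, each with its standard error (SE) or the Benjamini-Hochberg adjusted p of limma over all 21797 probes, called at 0.05. The sources do not state the log base or direction of the deposited ratios, which were read as log2 of Cy5 over Cy3. All 9 probes moved more over the conditions than most: the range of their condition means lay between 0.78 for Ccl9 and 2.90 for Ccl3, above that of 93.2% or more of probes. Over the 28 comparisons, 47 of 252 member tests were called, 31 higher and 16 lower, in 8 genes, and Cxcl2 was called in none. The share of all probes called differed widely between comparisons and stands with the counts below. Where a call is said to be lost without named RNAs, only RNAs of the conditions compared are listed. RNAs of other conditions ended some calls too. With each of the 36 RNAs left out in turn, the GM-CSF calls were kept 13 times for Il1rn at 48 h and 14 for Ccrl2 at 6 h. They were kept 20 times for Il1rn at 24 h and for Tnf at 72 h, and 24 times for Il1b at 72 h.

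**Figure D1:**
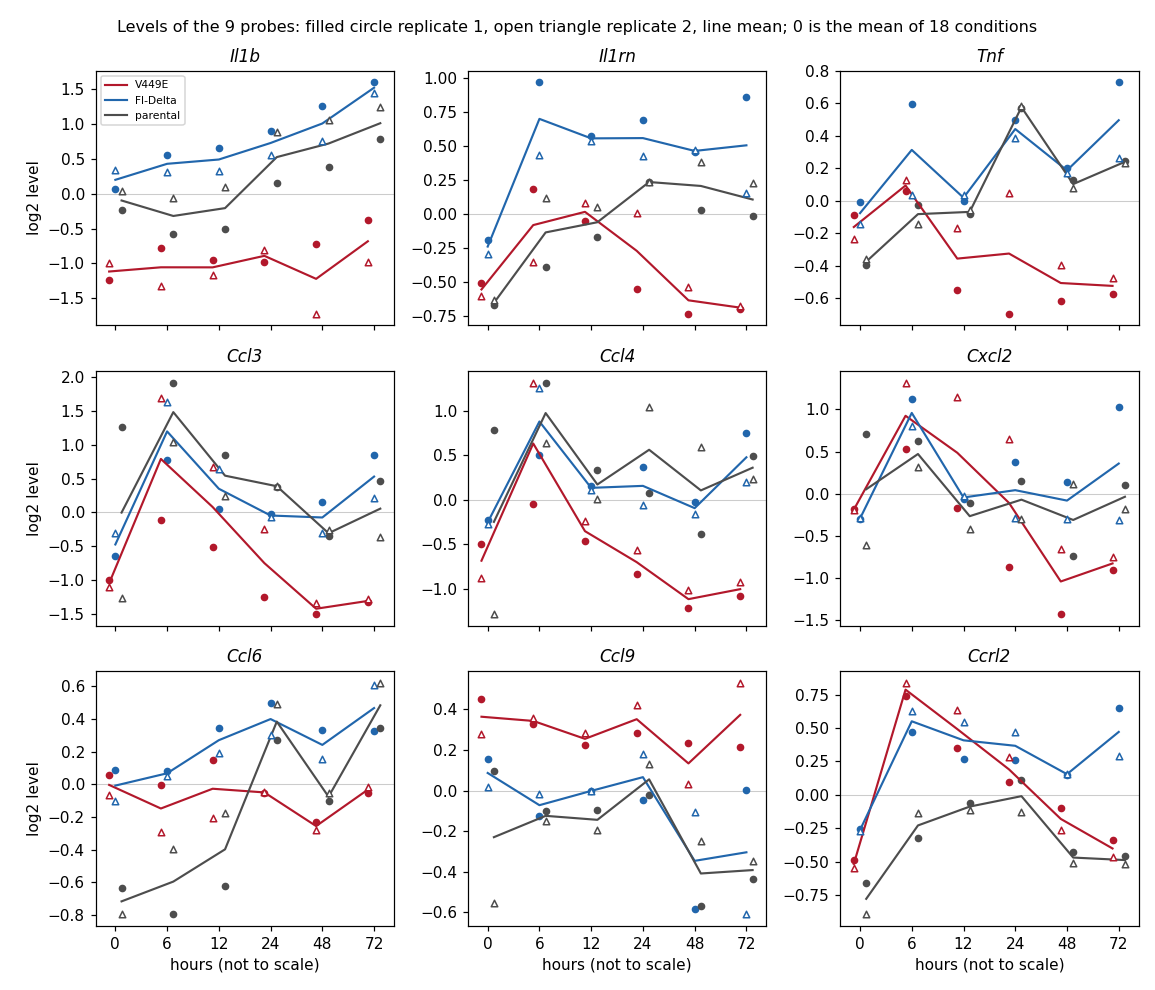
Log2 levels of the 9 probes (vertical axis, each panel with its own scale) over 0 to 72 h (horizontal axis, not to scale) in V449E, FI-Delta and parental cells. Filled circles are replicate 1, open triangles replicate 2 and lines the mean of both; Il1b lies lowest in V449E at every time, and the means of Ccl3, Ccl4 and Cxcl2 are highest at 6 h in each line.

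The arrays came from 2 print runs with different spot layouts, and values of these genes moved with the run. Run 1 held 90 arrays, run 2 held 26, and all 12 dye-swap pairs of V449E against FI-Delta lay on run 1. V449E against parental cells at 0 h was hybridised on both runs, by title with the same conditions and replicate numbers. The source label of the parental cells differed between the runs, so run and label cannot be told apart there. In that comparison Il1b stood at -1.33 and -1.68 on run 1, against -0.11 and -0.60 on run 2. The Il1b difference was thus smaller on run 2 in both replicates. The neutrophil protein gene S100a9 gave -3.36 and -1.61 on run 1 and -3.31 and -1.53 on run 2, nearly the same on both. Over all probes the values of the 2 runs correlated at r = 0.37 in replicate 1 and 0.36 in replicate 2. The slope of run 2 on run 1 over all probes was 0.33 and 0.26 in that order. The standard deviation over all probes was 0.23 and 0.23 on run 1, against 0.21 and 0.17 on run 2. So smaller values on run 2 were not particular to Il1b.

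Probes whose catalogue numbers adjoin those of the members also carried like profiles, which was looked for after the values were seen. The Il1b probe has the number after that of S100a9, and the 36 levels of both correlated at r = 0.92. Reg3d, a pancreatic lectin gene 2 numbers on, followed Il1b at r = 0.95, and the phospholipase gene Pla2g2e, 8 numbers on, at r = 0.95. The probe after Ccl3 (Sass6, a centriole protein) followed it at r = 0.86 with a slope of 0.29, and the probe after Ccl4 (Vpreb1, a pre-B cell gene) at r = 0.89 with a slope of 0.31. The probes after Ccl9 (Ccl24) and Ccrl2 (Lect2) reached r = 0.88 and 0.89, and the probe before Il1rn (Tlr2) r = 0.85. For Cxcl2, Tnf and Ccl6 neither adjoining probe passed r = 0.7. So 6 of the 9 had an adjoining probe on one side or the other above r = 0.7, beside 5.39% of all probes. Among probes with a range of condition means above 1, which leaves out Ccl9, these were 5 of 8 members beside 26.1% of 760 probes. With the next number alone they were 3 of 7 members beside 18.5% of 752 probes, and the probe 200 numbers on passed in 1.47%.

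Some of these pairs held on both runs and some on 1 of them. Over the 45 dye-swap pairs of run 1, Pla2g2e followed Il1b at r = 0.97 with a standard deviation (SD) of 0.79; over the 13 of run 2 the correlation was -0.25 and the SD 0.13. Vpreb1 followed Ccl4 on both, at r = 0.89 and 0.93, and Ccl24 followed Ccl9 at r = 0.86 and 0.77. The runs hold different comparisons, so these are descriptions. Signals of one probe and another could not be compared, since only ratios were used here, and the part of adjoining probes in the results below was not tested.

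**Figure D2:**
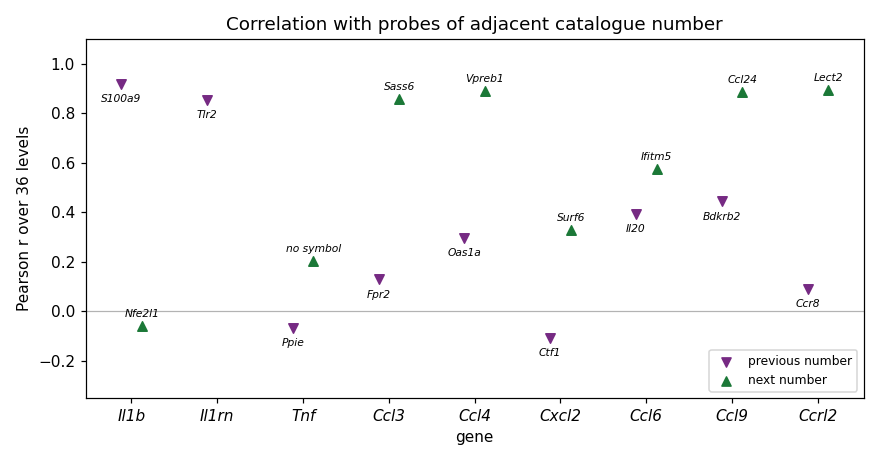
Pearson r over 36 levels (vertical axis) between each of the 9 probes (horizontal axis) and the probes of the previous (downward triangle) and next (upward triangle) catalogue number, named beside the points. 6 of the 9 genes have an adjoining probe above 0.7, led by S100a9 for Il1b at 0.92.

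Il1b was lower in V449E cells than in FI-Delta cells at every matched time after 0 h, by more than any other of the 9 genes. In V449E cells its level was -1.24 and -0.998 at 0 h, -0.78 and -1.33 at 6 h, -0.95 and -1.16 at 12 h, -0.98 and -0.81 at 24 h, -0.72 and -1.72 at 48 h and -0.38 and -0.98 at 72 h. In FI-Delta cells it was 0.06 and 0.34 at 0 h, 0.55 and 0.31 at 6 h, 0.66 and 0.32 at 12 h, 0.91 and 0.55 at 24 h, 1.27 and 0.75 at 48 h and 1.60 and 1.45 at 72 h. All 12 V449E values lay below all 12 FI-Delta values. The difference was -1.49 (SE 0.31, adjusted p = 0.0202) at 6 h, -1.55 (adjusted p = 0.0119) at 12 h and -1.62 (adjusted p = 0.00289) at 24 h. It was -2.23 (adjusted p = 3.81e-05) at 48 h and -2.21 (adjusted p = 2.27e-05) at 72 h, a 4.62-fold lower level, with a 95% interval of -2.85 to -1.56. The 48 h and 72 h calls held without any 1 of the 36 RNAs, and the 6, 12 and 24 h calls did not: at 6 h the difference was -1.22 (adjusted p = 0.258) without V449E 6 h replicate 2, -1.32 (adjusted p = 0.248) without FI-Delta 6 h replicate 1 and -1.64 (adjusted p = 0.0572) without FI-Delta 6 h replicate 2. The 12 h call was lost without V449E 12 h replicate 1 or 2 or FI-Delta 12 h replicate 1, and the 24 h call without replicate 1 of either line. Before factor was removed the difference was already -1.32 (SE 0.31), with an adjusted p of 0.0995 that did not pass. S100a9, the probe numbered just before Il1b, differed by -2.57 at 72 h and Reg3d by -1.31; their part in the Il1b difference was not tested, and V449E against FI-Delta was hybridised only on run 1.

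Il1b was higher at 72 h than at 0 h in FI-Delta cells and in GM-CSF, and the difference in V449E cells did not pass. In parental cells its level was -0.23 and 0.04 at 0 h, -0.58 and -0.06 at 6 h, -0.51 and 0.09 at 12 h, 0.16 and 0.89 at 24 h, 0.38 and 1.06 at 48 h and 0.78 and 1.25 at 72 h. At 72 h the rise over 0 h was 1.32 (SE 0.31, adjusted p = 0.00492) in FI-Delta cells and 1.11 (SE 0.31, adjusted p = 0.0359) in GM-CSF. Both replicates of the GM-CSF rise were alike although replicate 1 was hybridised on run 1 and replicate 2 on run 2: the directly compared arrays gave 0.93 and 1.16. The GM-CSF call was lost when any of its 4 RNAs was left out (differences between 0.87 and 1.37), and the FI-Delta call without replicate 1 of either time (lowest 1.09). In V449E cells the difference between 72 h and 0 h was 0.43 (95% interval -0.21 to 1.08, adjusted p = 1). Whether the 72 h response of V449E differed from that of FI-Delta did not pass for Il1b (difference of responses -0.89, adjusted p = 0.313).

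Il1rn, the interleukin-1 receptor antagonist, rose in FI-Delta cells and in GM-CSF and lay lower in V449E cells than in FI-Delta cells in both replicates at all 6 times, a difference that passed from 24 h. Its level in V449E cells was -0.51 and -0.61 at 0 h, 0.18 and -0.35 at 6 h, -0.05 and 0.08 at 12 h, -0.55 and 0.01 at 24 h, -0.73 and -0.54 at 48 h and -0.70 and -0.68 at 72 h. FI-Delta cells had -0.19 and -0.29 at 0 h, 0.96 and 0.43 at 6 h, 0.57 and 0.54 at 12 h, 0.68 and 0.43 at 24 h, 0.45 and 0.47 at 48 h and 0.85 and 0.15 at 72 h. Parental cells had -0.67 and -0.64 at 0 h, -0.39 and 0.12 at 6 h, -0.17 and 0.05 at 12 h, 0.24 and 0.23 at 24 h, 0.03 and 0.38 at 48 h and -0.01 and 0.22 at 72 h. At 48 h and 72 h V449E values lay near those at 0 h, whereas FI-Delta values lay above theirs in both replicates. FI-Delta cells rose by 0.94 at 6 h (SE 0.21, adjusted p = 0.0367), and the rises at 12 h and 72 h also passed (0.79 and 0.74). In GM-CSF it rose by 0.89, 0.86 and 0.76 at 24, 48 and 72 h (adjusted p = 0.0405, 0.0441 and 0.0369), and the direct arrays at 24 h gave 0.84 and 0.77 on runs 1 and 2. These time course calls were lost when single RNAs were left out: all 3 in GM-CSF and the FI-Delta call at 12 h without any 1 of their 4, and the FI-Delta calls at 6 h and 72 h without either 0 h replicate or replicate 1 of the later time, with lowest values of 0.62 in GM-CSF and 0.39 in FI-Delta. The difference V449E minus FI-Delta was -0.31 at 0 h (adjusted p = 0.9997), -0.78 at 6 h (adjusted p = 0.0972) and -0.54 at 12 h (adjusted p = 0.351), none of which passed. It was -0.83 at 24 h (adjusted p = 0.0306), -1.10 at 48 h (adjusted p = 0.00136) and -1.19 at 72 h (adjusted p = 3.40e-04). The 48 h and 72 h calls held without any 1 of the 36 RNAs, and the 24 h call was lost without V449E 24 h replicate 1 (-0.49) or either FI-Delta 24 h replicate (-0.61 and -0.95). In the test of the responses, V449E minus FI-Delta did not pass for Il1rn, at -0.51 by 24 h (adjusted p = 0.9999) and -0.88 by 72 h (adjusted p = 0.113).

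Tnf followed Il1rn over the conditions (r = 0.84 and 0.72 in replicates 1 and 2) and was lower in V449E than in FI-Delta cells late in the course. Its level in V449E cells was -0.09 and -0.23 at 0 h, 0.06 and 0.13 at 6 h, -0.55 and -0.17 at 12 h, -0.70 and 0.05 at 24 h, -0.62 and -0.39 at 48 h and -0.57 and -0.48 at 72 h. In FI-Delta cells it was -0.01 and -0.14 at 0 h, 0.59 and 0.03 at 6 h, 0.00 and 0.04 at 12 h, 0.50 and 0.39 at 24 h, 0.20 and 0.17 at 48 h and 0.73 and 0.26 at 72 h. In parental cells it was -0.39 and -0.36 at 0 h, -0.02 and -0.14 at 6 h, -0.08 and -0.06 at 12 h, 0.57 and 0.58 at 24 h, 0.13 and 0.08 at 48 h and 0.25 and 0.23 at 72 h, with its highest value at 24 h in both replicates. Tnf rose at 24 h and 72 h in GM-CSF by 0.95 (SE 0.18, adjusted p = 0.00599) and 0.62 (adjusted p = 0.0429), and at 72 h in FI-Delta cells by 0.57 (adjusted p = 0.0302). The direct arrays at 24 h in GM-CSF gave 1.05 and 1.004 on runs 1 and 2. That call was lost without either parental 0 h replicate, that at 72 h without any 1 of its 4 RNAs, and the FI-Delta call without either 0 h replicate or 72 h replicate 1 (0.34). The difference V449E minus FI-Delta was -0.77 at 24 h, -0.69 at 48 h and -1.02 at 72 h (adjusted p = 0.0146, 0.0138 and 2.47e-04). The 72 h call held without any 1 of the 36 RNAs. The 24 h call rested on replicate 1, where V449E 24 h was -0.70 against 0.05 in replicate 2: without that RNA the difference was -0.36 (adjusted p = 0.464), and it also failed without either FI-Delta 24 h replicate. The 48 h call failed without replicate 1 of either line or FI-Delta replicate 2. In the test of the responses themselves, the Tnf response by 72 h was lower in V449E than in FI-Delta cells, a difference of -0.94 (SE 0.25, adjusted p = 0.0392). V449E stood at -0.36 and FI-Delta at 0.57 relative to 0 h, and 1.41% of all probes were called lower there. The call was lost without parental 0 h replicate 1 or either V449E 0 h replicate.

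Ccl3 and Ccl4 moved together (r = 0.97 and 0.87 over the 18 conditions in replicates 1 and 2), with the highest mean level of each line at 6 h, but replicates of some conditions lay far apart. In V449E cells Ccl3 was -0.99 and -1.10 at 0 h, -0.11 and 1.69 at 6 h, -0.51 and 0.68 at 12 h, -1.24 and -0.25 at 24 h, -1.50 and -1.34 at 48 h and -1.33 and -1.28 at 72 h. FI-Delta values were -0.64 and -0.30 at 0 h, 0.77 and 1.62 at 6 h, 0.06 and 0.64 at 12 h, -0.02 and -0.07 at 24 h, 0.16 and -0.30 at 48 h and 0.84 and 0.22 at 72 h. In parental cells it was 1.26 and -1.26 at 0 h, 1.91 and 1.04 at 6 h, 0.84 and 0.24 at 12 h, 0.38 and 0.39 at 24 h, -0.35 and -0.26 at 48 h and 0.47 and -0.35 at 72 h. Within each line and replicate the 6 h value of Ccl3 was the highest of the course, except in FI-Delta replicate 1, where 72 h was higher. Ccl4 in V449E cells was -0.49 and -0.88 at 0 h, -0.05 and 1.32 at 6 h, -0.47 and -0.24 at 12 h, -0.84 and -0.56 at 24 h, -1.22 and -1.01 at 48 h and -1.08 and -0.93 at 72 h. In FI-Delta cells Ccl4 was -0.23 and -0.28 at 0 h, 0.51 and 1.25 at 6 h, 0.16 and 0.11 at 12 h, 0.37 and -0.06 at 24 h, -0.03 and -0.16 at 48 h and 0.75 and 0.20 at 72 h. Parental Ccl4 levels were 0.79 and -1.29 at 0 h, 1.32 and 0.64 at 6 h, 0.33 and 0.01 at 12 h, 0.08 and 1.04 at 24 h, -0.39 and 0.60 at 48 h and 0.49 and 0.23 at 72 h. Its 6 h value was the highest of the course except in FI-Delta replicate 1, where 72 h was higher, and in parental replicate 2, where 24 h was higher. The parental 0 h replicates lay 2.52 apart for Ccl3, a wider gap than in 99.9954% of probes, and 2.07 apart for Ccl4. The rise at 6 h was 1.83 (SE 0.58, adjusted p = 0.212) in V449E, 1.67 (SE 0.58, adjusted p = 0.244) in FI-Delta and 1.48 (SE 0.58, adjusted p = 0.332) in GM-CSF for Ccl3, and 1.32, 1.14 and 1.22 for Ccl4, positive in both replicates of each. None of these passed. Without parental 0 h replicate 1 the GM-CSF rise was 2.91 (adjusted p = 0.0446) for Ccl3 and 2.47 (adjusted p = 0.0223) for Ccl4, and without replicate 2 it was 0.11 (adjusted p = 0.986) and 0.08 (adjusted p = 0.987). In the direct arrays of V449E against parental cells at 0 h, Ccl3 gave -2.59 and 0.60 on run 1 and -1.005 and -0.57 on run 2. Ccl4 gave -1.88 and 0.31 on run 1 and 0.01 and -0.24 on run 2. Cxcl2 gave -1.57 and 1.25 on run 1 and -0.12 and 0.03 on run 2. For all 3 the replicates had opposite signs on run 1 and lay closer together on run 2. By title the conditions and replicates were the same on both runs, but the source label of the parental cells differed.

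At 72 h both chemokines were lower in V449E than in FI-Delta cells. Ccl3 was -1.33 and -1.28 in V449E cells, against 0.84 and 0.22 in FI-Delta cells. Ccl4 was -1.08 and -0.93 in V449E cells, against 0.75 and 0.20 in FI-Delta cells. The difference was -1.83 (SE 0.58, adjusted p = 0.0328) for Ccl3, 3.56-fold, and -1.48 (SE 0.47, adjusted p = 0.0321) for Ccl4. For Ccl3 the call was lost without any 1 of its 4 RNAs (values between -2.09 and -1.44), and for Ccl4 without replicate 1 of either line or V449E replicate 2 (between -1.79 and -1.02). Each was also lost under 4 of 8 other settings of the analysis. No other comparison of either gene was called.

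**Figure D3:**
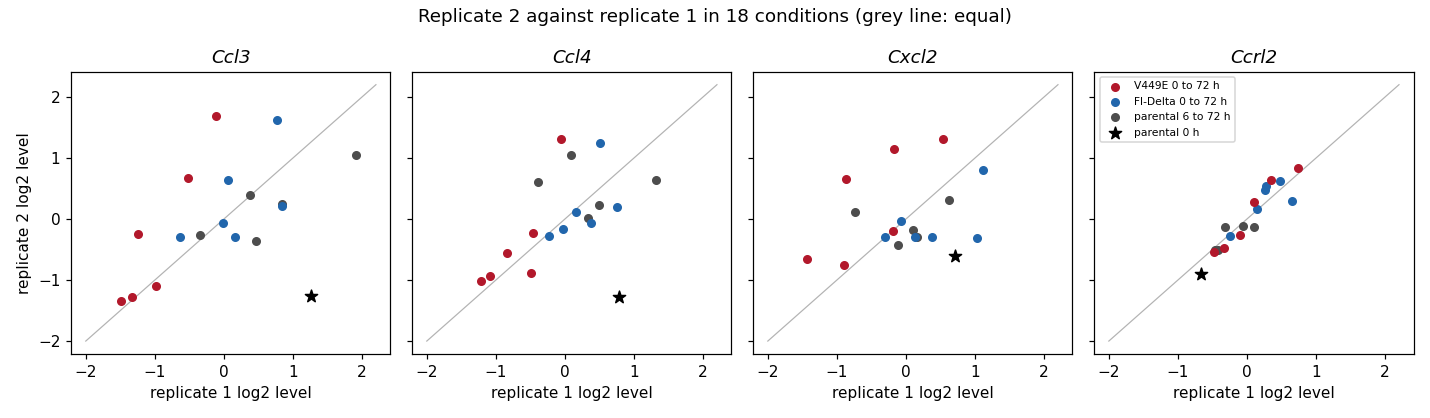
Log2 level in replicate 2 (vertical axis) against replicate 1 (horizontal axis) of Ccl3, Ccl4, Cxcl2 and Ccrl2 in 18 conditions, with parental cells at 0 h as a star and a grey line where both are equal. The star lies far off the line for Ccl3 (1.26 and -1.26), Ccl4 and Cxcl2, and close to it for Ccrl2.

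Cxcl2, the neutrophil attractant, also had its highest mean level of each line at 6 h, and no call. Its level in V449E cells was -0.19 and -0.19 at 0 h, 0.53 and 1.32 at 6 h, -0.17 and 1.14 at 12 h, -0.87 and 0.65 at 24 h, -1.43 and -0.66 at 48 h and -0.90 and -0.76 at 72 h. FI-Delta cells showed -0.30 and -0.29 at 0 h, 1.12 and 0.80 at 6 h, -0.07 and -0.03 at 12 h, 0.38 and -0.30 at 24 h, 0.13 and -0.30 at 48 h and 1.03 and -0.32 at 72 h. In parental cells it was 0.71 and -0.61 at 0 h, 0.62 and 0.32 at 6 h, -0.11 and -0.43 at 12 h, 0.15 and -0.30 at 24 h, -0.74 and 0.12 at 48 h and 0.10 and -0.18 at 72 h. Within each line and replicate the 6 h value of Cxcl2 was the highest of the course, except in parental replicate 1, where 0 h was higher (0.71 against 0.62). The replicates of V449E at 24 h lay on opposite sides of 0, and over the 18 conditions the replicates correlated at r = 0.25 only. At 6 h both mutant lines were above their 0 h level in both replicates, by 1.11 (SE 0.49, adjusted p = 0.513) in V449E and 1.25 (SE 0.49, adjusted p = 0.321) in FI-Delta. At 72 h the difference V449E minus FI-Delta was -1.19 (SE 0.49, adjusted p = 0.104), with a 95% interval of -2.19 to -0.18 before adjustment. The residual SDs of Cxcl2, Ccl4 and Ccl3 were 0.56, 0.55 and 0.68, above those of 99.9633% or more of probes. They pool all 18 conditions. So the gaps between the parental 0 h replicates, 1.31, 2.07 and 2.52 in that order, enter the SE of every comparison of these genes.

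Ccl6, a CC chemokine of resting myeloid cells, was lowest in parental cells at 0 h and rose there in GM-CSF. In V449E cells its level was 0.06 and -0.06 at 0 h, 0.00 and -0.29 at 6 h, 0.15 and -0.20 at 12 h, -0.05 and -0.05 at 24 h, -0.23 and -0.28 at 48 h and -0.05 and -0.01 at 72 h, with no time called against 0 h. In FI-Delta cells it was 0.09 and -0.10 at 0 h, 0.08 and 0.05 at 6 h, 0.35 and 0.19 at 12 h, 0.50 and 0.30 at 24 h, 0.33 and 0.15 at 48 h and 0.33 and 0.61 at 72 h. In parental cells it was -0.64 and -0.80 at 0 h, -0.80 and -0.40 at 6 h, -0.62 and -0.18 at 12 h, 0.27 and 0.49 at 24 h, -0.10 and -0.05 at 48 h and 0.35 and 0.62 at 72 h, negative to 12 h and positive at 24 h and 72 h in both replicates. In GM-CSF Ccl6 rose by 1.10 at 24 h (SE 0.15, adjusted p = 2.43e-04), 0.64 at 48 h (adjusted p = 0.0311) and 1.20 at 72 h (adjusted p = 3.33e-05), the last a 2.3-fold rise. The 24 h and 72 h calls held without any 1 of the 36 RNAs, the direct arrays gave 1.10 and 1.54 at 72 h on runs 1 and 2, and the 48 h call was lost without any 1 of its own 4 (lowest 0.47). At 0 h Ccl6 was 0.06 and -0.06 in V449E cells, against -0.64 and -0.80 in parental cells. That difference of 0.71 (SE 0.15, adjusted p = 0.0216) was the only member call there, beside 0.463% of all probes called higher, and it was lost without any 1 of its 4 RNAs (0.70 to 0.85). The direct arrays gave 0.45 and 0.25 on run 1 and 0.58 and 0.68 on run 2. FI-Delta stood 0.71 above parental cells at 0 h, without passing (adjusted p = 0.0736). The responses differed: relative to 0 h, the V449E response minus the GM-CSF response was -1.15 at 24 h (SE 0.21, adjusted p = 0.0386) and -1.23 at 72 h (adjusted p = 0.00461), where 0.0459% and 0.312% of all probes were called lower. Both calls were lost without parental 0 h replicate 1 or either V449E 0 h replicate. For Ccl6 the FI-Delta response minus the GM-CSF response was also below 0. It was -0.69 at 24 h (replicates -0.50 and -0.88) and -0.73 at 72 h (replicates -0.75 and -0.70). Neither passed after adjustment.

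Ccl6 was also lower in V449E than in FI-Delta cells at 48 h and 72 h, with differences of -0.50 and -0.50 (adjusted p = 0.0402 and 0.0239), 1.41-fold at 72 h. The 48 h call was lost without any 1 of its 4 RNAs and the 72 h call without either V449E replicate or FI-Delta replicate 2 (-0.72 to -0.43 over both). It was higher in FI-Delta than in GM-CSF cells at 6 h by 0.66 (SE 0.15, adjusted p = 0.0424), a call lost without either FI-Delta 6 h replicate or GM-CSF 6 h replicate 1 (0.42 to 0.88). With each of the 36 RNAs left out in turn, that call was kept 16 times, and the V449E against FI-Delta call at 48 h 22 times. In FI-Delta cells Ccl6 rose by 0.47 at 72 h (adjusted p = 0.0334), a call lost without either 0 h replicate or 72 h replicate 2 (0.32 to 0.62).

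Ccl9, the other CC chemokine made without a stimulus, was highest in V449E cells. Its level in V449E cells was 0.45 and 0.28 at 0 h, 0.33 and 0.36 at 6 h, 0.23 and 0.28 at 12 h, 0.28 and 0.42 at 24 h, 0.24 and 0.03 at 48 h and 0.22 and 0.53 at 72 h. FI-Delta levels were 0.16 and 0.02 at 0 h, -0.13 and -0.02 at 6 h, 0.00 and 0.00 at 12 h, -0.05 and 0.18 at 24 h, -0.59 and -0.11 at 48 h and 0.00 and -0.61 at 72 h. Parental levels were 0.09 and -0.55 at 0 h, -0.10 and -0.15 at 6 h, -0.09 and -0.19 at 12 h, -0.02 and 0.13 at 24 h, -0.57 and -0.25 at 48 h and -0.44 and -0.35 at 72 h. V449E values were above 0 in all 12 RNAs. The parental 0 h replicates of Ccl9 lay 0.65 apart, a wider gap than in 99.57% of probes there. The median gap of Ccl9 in the other 17 conditions was 0.14. At 72 h V449E was above FI-Delta by 0.68 (SE 0.18, adjusted p = 0.0118), 1.6-fold, the only call above 0 between these lines. The replicates gave 0.21 and 1.14, and the call was lost without FI-Delta 72 h replicate 2 (0.32, adjusted p = 0.341) and without V449E 72 h replicate 2 (0.49, adjusted p = 0.181). Across conditions Ccl9 ran against Il1b, with r = -0.69 and -0.67 in replicates 1 and 2, and had no clear relation to Ccl6 (r = -0.14 and -0.08).

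Ccrl2, the chemerin-binding receptor-like protein, was the member called most often, in 14 of 28 comparisons, and the only one called in the V449E time course. In V449E cells its level was -0.48 and -0.55 at 0 h, 0.74 and 0.84 at 6 h, 0.35 and 0.63 at 12 h, 0.10 and 0.28 at 24 h, -0.10 and -0.26 at 48 h and -0.33 and -0.47 at 72 h. In FI-Delta cells it was -0.25 and -0.27 at 0 h, 0.47 and 0.63 at 6 h, 0.27 and 0.55 at 12 h, 0.26 and 0.47 at 24 h, 0.15 and 0.16 at 48 h and 0.65 and 0.29 at 72 h. In parental cells it was -0.66 and -0.89 at 0 h, -0.32 and -0.13 at 6 h, -0.06 and -0.12 at 12 h, 0.11 and -0.13 at 24 h, -0.43 and -0.51 at 48 h and -0.46 and -0.52 at 72 h. Levels were lowest at 0 h in all 3 lines, rose at 6 h in both replicates of each, and were low again in V449E cells at 72 h, where both values lay below those of every FI-Delta time after 0 h. The 6 h rise was 1.30 (SE 0.12, adjusted p = 6.03e-06) in V449E, 2.47-fold, 0.81 (SE 0.12, adjusted p = 0.00172) in FI-Delta and 0.55 (SE 0.12, adjusted p = 0.0469) in GM-CSF. At 24 h the rises were 0.71, 0.63 and 0.77 in the same order, and all passed. The direct arrays of the GM-CSF rise at 24 h gave 0.63 and 0.76 on runs 1 and 2. At 72 h FI-Delta was still 0.73 above 0 h (adjusted p = 2.73e-04), while V449E at 0.12 and GM-CSF at 0.29 did not pass.

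Between the lines, Ccrl2 at 72 h was -0.33 and -0.47 in V449E cells, against 0.65 and 0.29 in FI-Delta cells, a difference of -0.87 (SE 0.12, adjusted p = 2.34e-05). It was higher in FI-Delta than in GM-CSF cells at 6, 48 and 72 h, by 0.78, 0.62 and 0.96 (adjusted p = 0.00333, 0.0268 and 1.57e-04). The response of V449E by 72 h minus that of FI-Delta was -0.62 (SE 0.17, adjusted p = 0.0496). That call was lost without parental 0 h replicate 1 or either V449E 0 h replicate. Calls that held without any 1 of the 36 RNAs were V449E at 6 h, FI-Delta at 72 h, and FI-Delta against GM-CSF and V449E against FI-Delta at 72 h. The other 6 h, 12 h and 24 h time course calls were lost without 1 or more RNAs, with lowest values of 0.63 in V449E, 0.49 in FI-Delta and 0.34 in GM-CSF: those in V449E without V449E 0 h replicate 2, and at 24 h also without 0 h replicate 1 or 24 h replicate 2, those in FI-Delta without either 0 h replicate or replicate 2 of the later time, and those in GM-CSF without parental 0 h replicate 2, and at 6 h and 12 h also without parental 0 h replicate 1 and, in turn, 6 h replicate 2 and 12 h replicate 1. FI-Delta against GM-CSF was lost at 6 h without FI-Delta 6 h replicate 2 (0.64) and at 48 h without replicate 2 of either.

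Counted over the 9 genes, V449E against FI-Delta gave 17 of 54 member calls, 1 higher and 16 lower, in 8 genes. At 72 h 8 of 9 genes were called, 1 higher and 7 lower, where 16.7% of all probes were called (9.02% higher and 7.65% lower), and the median of the 9 was -1.19 against -0.01 over all probes. At 48 h 4 of 9 were lower beside 4.59% of probes called lower, at 24 h 3 of 9 beside 1.89%, at 12 h 1 beside 0.670% and at 6 h 1 beside 0.440%. At 0 h none was called, beside 0.225% called either way, and 1 had an unadjusted p under 0.05 in limma. Each comparison uses its own RNAs, but all times of a line share arrays through the fitted levels. In the same comparison at 72 h, 9 of 11 probes of a late neutrophil granule list were lower, with a median of -2.34, among them Ltf (lactoferrin) at -4.06 (SE 0.60). Of 16 macrophage probes 5 were lower and 3 higher, with a median of -0.27, and 4 of 11 mast cell and basophil probes were higher, led by Cpa3 at 3.02 (SE 0.24). Of the other lists, 4 of 9 dendritic, 2 of 7 erythroid and megakaryocyte probes were higher, and 1 of 5 primary granule and 1 of 11 lymphoid probes were lower. The 4 dendritic probes were all of the MHC class II genes H2-Eb1, H2-Aa and H2-Ab1, with H2-Aa on more than 1 probe. No probe of the other genes of that list was called. Only ratios were used here, so whether a marker was present at all was not analysed. The part of such shifts in cell make-up in the member differences was not tested; in bulk RNA fewer cells of a type and less RNA per cell cannot be told apart.

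**Figure D4:**
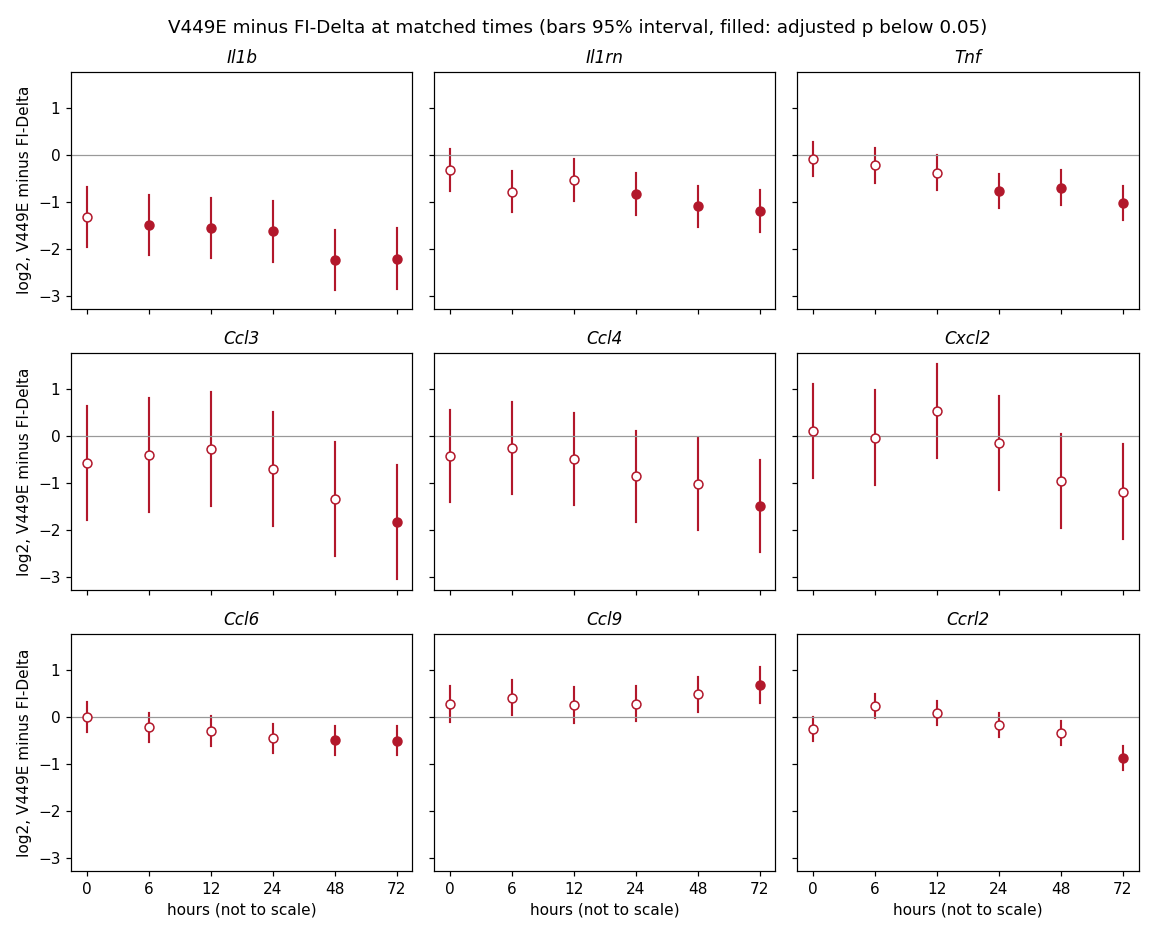
Log2 difference V449E minus FI-Delta (vertical axis, common scale) of the 9 genes at 0 to 72 h (horizontal axis, not to scale), with 95% intervals of the fit as bars. Filled points have an adjusted p below 0.05; at 72 h 7 genes are filled below 0, Ccl9 is filled above 0 and Cxcl2 is open.

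In the time courses, GM-CSF gave 12 of 45 member calls in 5 genes (Il1b, Il1rn, Tnf, Ccl6 and Ccrl2), all higher, FI-Delta gave 10 of 45 in 5 genes (also Il1b, Il1rn, Tnf, Ccl6 and Ccrl2), all higher, and V449E gave 3 of 45, all Ccrl2. In GM-CSF 1, 1, 4, 2 and 4 genes were called at 6, 12, 24, 48 and 72 h, beside 0.289, 1.22, 0.817, 0.748 and 2.92% of all probes called higher. In FI-Delta 2, 2, 1 and 5 genes were called at 6, 12, 24 and 72 h, beside 0.298, 1.78, 0.913 and 6.75% called higher. At 48 h none was called, beside 4.44% called either way, and 4 genes had an unadjusted p under 0.05 in limma. In V449E 1 gene was called at 6, 12 and 24 h, beside 0.390, 0.537 and 0.702% called higher, and none at 48 h or 72 h, where 0.00459 and 0% of all probes were called either way and 1 and 0 genes had an unadjusted p under 0.05. FI-Delta against GM-CSF gave 4 of 54, all higher, with 2 genes at 6 h and 1 each at 48 h and 72 h beside 0.417, 0.211 and 0.514% called higher. At 0, 12 and 24 h none was called, beside 0.106, 0.307 and 0.174% called either way, and 2, 4 and 1 genes had a limma p under 0.05 before adjustment. Over all 5 times of a course together (F test in limma), the members called were Il1b, Il1rn, Tnf, Ccl6 and Ccrl2 in GM-CSF, beside 14.3% of all probes, Il1b, Il1rn and Ccrl2 in FI-Delta, beside 12.5%, and Ccrl2 alone in V449E (adjusted p = 4.23e-06), beside 4.46%. The FI-Delta and GM-CSF courses and the comparison between them share RNAs, as do both mutant courses and the comparison of the mutants.

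Cell type markers moved in the same courses. At 72 h in FI-Delta cells, 5 of 11 late neutrophil granule probes were higher (median 0.999), and of 16 macrophage probes 6 were higher and 1 lower (median 0.35). There 4 of 11 mast cell and basophil and 4 of 9 dendritic probes were lower, with 1 of 7 erythroid and megakaryocyte probes lower and 1 of 11 lymphoid probes higher. The 4 dendritic probes were again all of H2-Eb1, H2-Aa and H2-Ab1. Of all probes 6.75% were called higher there and 8.51% lower. In GM-CSF at 72 h, 3 of 11 late neutrophil granule probes were higher (median 0.42), as were 6 of 16 macrophage probes (median 0.27). Lower were 4 of 11 mast cell and basophil and 2 of 7 erythroid and megakaryocyte probes, and of 9 dendritic probes 1 was higher and 3 lower. The higher one was Itgax at 0.67 and the lower ones were of H2-Aa and H2-Ab1. In that comparison 2.92% of all probes were higher and 2.55% lower. None of the 5 primary granule probes was called at 72 h in either course, nor any lymphoid probe in GM-CSF then. In V449E cells no marker probe was called at 72 h, as no probe of the array was. At 6 h, when Ccrl2 was called in all 3 courses, 1 macrophage probe was higher in V449E cells and no other marker probe was called in any course. The part of these marker shifts in the member rises was not tested.

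These counts leaned on the 0 h RNAs. The GM-CSF count of 12 became 2 without parental 0 h replicate 2, 5 without parental 0 h replicate 1 or V449E 0 h replicate 1, 6 without V449E 0 h replicate 2, and 7 without FI-Delta 0 h replicate 1 or V449E 72 h replicate 2. The FI-Delta count of 10 became 1 without FI-Delta 0 h replicate 1, 2 without its replicate 2 and 6 without either V449E 0 h replicate. The V449E count of 3 became 1 without V449E 0 h replicate 2. For V449E against FI-Delta the count of 17 lay between 12 and 17 over the 36 RNAs left out. For FI-Delta against GM-CSF the count of 4 became 7 without GM-CSF 6 h replicate 2 and 2 without parental 0 h replicate 1, either FI-Delta 0 h replicate, V449E 0 h replicate 2 or replicate 2 of GM-CSF or FI-Delta at 48 h. With the arrays of run 1 alone, on which replicate 2 of the GM-CSF course has arrays at 0 h only, the GM-CSF count was 4. With all arrays brought to a common spread the GM-CSF count was 7, against 12, and the FI-Delta count was 5, against 10.

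Differences between the responses of 2 lines at 24 h and 72 h were tested in 54 member tests, of which 4 were called: Ccl6 in V449E against GM-CSF at both times, and Tnf and Ccrl2 in V449E against FI-Delta at 72 h. All 4 were negative, so the V449E response was the lower one. None was called for FI-Delta against GM-CSF at 24 h or 72 h, beside 0 and 0.00459% of all probes, nor for V449E against FI-Delta at 24 h, beside 0.00918%, each called either way. Of the 9 genes, 1, 2 and 2 in that order had a limma p under 0.05 before adjustment. The count of 4 became 0 without parental 0 h replicate 1 or either V449E 0 h replicate. It became 1 without parental 0 h replicate 2, either FI-Delta 0 h replicate, replicate 2 of GM-CSF or FI-Delta at 48 h, or V449E 72 h replicate 2. It became 2 without replicate 1 of GM-CSF 48 h, FI-Delta 72 h or V449E 72 h, or either V449E replicate at 6 h or 48 h.

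Related genes were counted from lists of the pathways these mediators belong to. At 6 h in V449E cells, 6 of 21 TNF pathway probes were higher and 1 lower (median 0.32, all probes 0.00), beside 0.390% of all probes called higher and 0.312% lower. They included Birc3, an inhibitor of apoptosis, at 1.18 (SE 0.20), Tnfaip3, the NF-kB feedback protein A20, at 0.99 (SE 0.17), and Tnfrsf1b, the TNF receptor 2, at 0.74 (SE 0.14). Of 14 measured genes of the NF-kB subunits and inhibitors 3 probes were higher there, Nfkb2 at 0.97 (SE 0.13), Tnip1 at 0.82 (SE 0.15) and Relb at 0.77 (SE 0.13), and none lower. At 6 h in FI-Delta cells Nfkb2 was 0.65 (SE 0.13) and Relb 0.62 (SE 0.13), and in GM-CSF 0.62 (SE 0.13) and 0.60 (SE 0.13), all called. The TNF pathway list had 5 of 21 probes higher and 1 lower there in FI-Delta cells, beside 0.298% of all probes higher and 0.427% lower. In GM-CSF it had 2 higher, beside 0.289% higher and 0.151% lower. No probe of 26 other chemokine genes was called at 6 h in any of the 3 courses, nor any probe of the mRNA decay and other cytokine lists. Of 24 interleukin-1 pathway probes 1 was higher at 6 h in V449E and in FI-Delta cells (Casp4, at 0.86 and 0.73), and none in GM-CSF. Of 21 chemokine receptor probes 1 was higher then in FI-Delta cells (Cxcr4, at 0.51), and none in the other courses.

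At 72 h in V449E against FI-Delta cells, where 7.65% of all probes were called lower and 9.02% higher, 3 of 24 interleukin-1 pathway probes were lower and 1 higher, near those shares. They were the decoy receptor Il1r2 at -0.99 (SE 0.13), Il1a, the sister cytokine, at -0.57 (SE 0.20), the interleukin-18 receptor Il18r1 at 1.01 (SE 0.21) and, named after its value was seen, the interleukin-18 binding protein Il18bp at -0.35 (SE 0.08). Of 21 measured chemokine receptor genes 8 probes were lower and none higher, led by Ackr1 at -2.04 (SE 0.30), which was also among the probes most like Il1b, Ccr10 at -1.03 (SE 0.17), and Ccr1, which binds Ccl3 and Ccl9, at -0.97 (SE 0.15). Cxcr2, the receptor of Cxcl2, was lower at -0.63 (SE 0.14) and is named for that role after its value was seen. Of 21 TNF pathway probes 6 were lower and 2 higher, led by the TNF receptor Tnfrsf1a at -0.82 (SE 0.16) and by Birc3 at -0.61 (SE 0.20). Of 14 probes of NF-kB subunits and inhibitors 2 were lower, Nfkbiz at -0.58 (SE 0.12) and Nfkb2 at -0.37 (SE 0.13), and of 21 probes of other cytokines 3 were lower and 2 higher. Of 12 probes of mRNA decay genes 2 were lower and 2 higher: Zfp36, whose protein destabilises Tnf mRNA, was lower at -1.28 (SE 0.19), as was the ribonuclease gene Zc3h12a at -0.46 (SE 0.14). Elavl1, which stabilises such transcripts, was higher at 0.37 (SE 0.07). Khsrp, which destabilises them and is named after its value was seen, was higher on 1 probe at 0.27 (SE 0.09). Another Khsrp probe, called higher at 48 h, was not called at 72 h. Of 26 other chemokine genes 4 probes were lower and 2 higher, near the shares of all probes, led by Ccl24 at 0.47 (SE 0.10), whose probe follows Ccl9 in number, and Cx3cl1 (fractalkine) at -0.44 (SE 0.12). List medians stayed between -0.13 for chemokine receptors and 0.02 for mRNA decay genes.

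For each called member, the 3 probes of other symbols with the most alike profile were found by the lower of the 2 within-replicate correlations over 18 conditions; conditions of a replicate share arrays, so these are descriptions. Il1rn was nearest to Plxnd1, a semaphorin receptor (0.89), and Ikbke, an inflammatory kinase (0.88), and Tnf to the lectin-like receptor Olr1 (0.83), the NADPH oxidase subunit Ncf1 (0.80) and Clec5a (0.80). Ccl6 was nearest to Clec4n, the lectin dectin-2 (0.87), and then to Upp1 (0.80) and Capg (0.80). Ccl3 and Ccl4 were each among the nearest to the other (0.87), and Ccrl2 was near to Tnfrsf1b (0.79) and Gadd45b (0.78). The nearest of all to Il1b were Ear14 (0.97), Ackr1 (0.95) and Psg28 (0.95), a ribonuclease, a chemokine-binding and a pregnancy protein gene whose probe numbers lie 32, 116 and 45 from it. In the repeated comparison of V449E with parental cells at 0 h, Ear14 gave -0.67 and -0.78 on run 1 and 0.10 and -0.03 on run 2, larger on run 1 in both replicates, as for Il1b. For Ccl4, Ccl9 and Ccrl2 the adjoining probes Vpreb1 (0.87), Ccl24 (0.88) and Lect2 (0.86) were among the 3. Within the set, Ccl3 and Cxcl2 correlated at r = 0.81 and 0.76 in replicates 1 and 2, and Il1b and Cxcl2 at 0.44 and -0.27, with opposite signs.

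**Figure D5:**
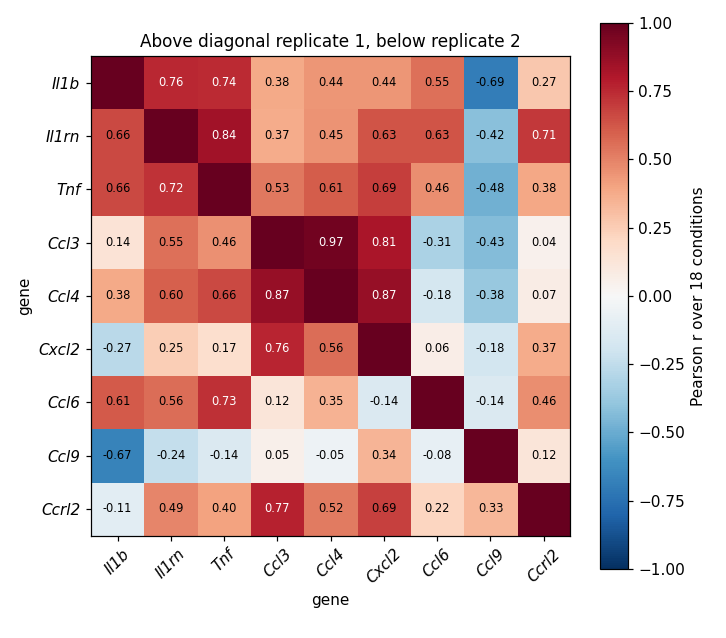
Pearson r between the 9 probes over 18 conditions (both axes list the genes), with replicate 1 above the diagonal and replicate 2 below it. Values are 0.56 to 0.97 among Ccl3, Ccl4 and Cxcl2 and 0.66 to 0.84 among Il1b, Il1rn and Tnf. Between these 2 groups they run from -0.27 (Il1b and Cxcl2, replicate 2) to 0.69 (Cxcl2 and Tnf, replicate 1), so the ranges overlap. Ccl9 runs against Il1b in both replicates.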

How the data were processed

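The arrays were spotted 2-colour arrays of FDB1 RNA, 116 in 58 dye-swap pairs, with 36 RNAs in 18 conditions of 2 replicates. The deposited values are ratios normalised by the authors, read here as log2 of Cy5 over Cy3; log base and direction are likely but not stated. Per the labels, spot layouts changed between print runs and spots were put in 1 order after normalisation, and the submitters' processing notes name limma without a version. Background correction is not given in the sources used here, and intensities were not used. The error of a difference is pooled: each probe has 1 residual spread over all 18 conditions of 2 RNAs each. So a probe has the same SE in every comparison of 2 conditions, whichever RNAs are compared.

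Of 23040 probes, 1243 controls were left out. Dye-swap pairs were averaged, least squares within a replicate gave each RNA a level, and limma 3.58.1 (R 4.3.3; lmFit, eBayes) compared conditions on 36 levels with the replicate number as a block, with 17 residual and 5.99 prior degrees of freedom. Tests were 2-sided, with Benjamini-Hochberg adjustment over 21797 probes within a comparison and a threshold of 0.05. Every array holds RNAs of 1 replicate number and levels are centred within a replicate, so replicates pair by array and the block takes up 1 degree of freedom without moving a difference. The median SE of a difference was 0.09. The fit was also run on simulated data with independent normal noise for each RNA. That simulation held no array noise, print run effect or likeness between adjoining probes, so it cannot speak to these. A condition lay on 8 to 32 arrays, all weighted equally.

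The members, gene lists and tests were chosen with earlier results of these data known. Genes named are the 9 members, the 3 probes most like each called member, and up to 3 called genes of a list with the largest difference; probes of adjoining number and Cxcr2, Il18bp and Khsrp were chosen after values were seen. Symbols were updated through Entrez identifiers; 16651 probes had 1 symbol, 137 several and 5009 none. Alternatives were no block, direct arrays only, print run 1 only, weighted levels, scaled arrays, named probes only, probes averaged per symbol, robust eBayes and leaving out each of the 36 RNAs. Figures were drawn with matplotlib 3.10.9.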

Additional observations from a re-analysis of the deposited data

Results flagged for a closer look

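The responses of 2 lines to the same time differed, by a test of the difference itself in limma, for 3 of the 9 genes. For Ccl6 the response at 24 h was -0.05 in V449E cells and 1.10 in GM-CSF, a difference of -1.15 (adjusted p = 0.0386), and both replicates were negative (-1.02 and -1.27). At 72 h the Ccl6 response was -0.03 in V449E cells and 1.20 in GM-CSF, a difference of -1.23 (adjusted p = 0.00461), again negative in both replicates (-1.09 and -1.37). For Ccrl2 the response at 72 h was 0.12 in V449E cells and 0.73 in FI-Delta cells, a difference of -0.62 (adjusted p = 0.0496; -0.75 and -0.48). For Tnf it was -0.36 in V449E cells and 0.57 in FI-Delta cells, a difference of -0.94 (adjusted p = 0.0392; -1.22 and -0.65). The Ccl6 differences share the parental 0 h RNAs, at which Ccl6 was lowest. All 4 of these calls were lost without parental 0 h replicate 1, and likewise without either V449E 0 h replicate. For Ccl6 the FI-Delta response minus the GM-CSF response was below 0 as well, at -0.69 at 24 h and -0.73 at 72 h, without passing.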

How the results depend on the processing

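No called member difference changed sign under any setting. Of 47 calls, 23 passed under all 8 other settings, 11 without any 1 of the 36 RNAs and 10 under all of these. Without the replicate block all 47 calls passed; the counts by family were then 12 in the GM-CSF course, 12 in the FI-Delta course and 17 for V449E against FI-Delta. Print run 1 only ended 15 calls (GM-CSF 4, differences of responses 1), scaled arrays 14 (GM-CSF 7, FI-Delta 5, differences of responses 2, while FI-Delta against GM-CSF gave 8 calls), weighted levels 7, direct arrays 6 and robust eBayes 5, and adjusting over named probes or averaging per symbol none; V449E against parental cells at 0 h gave 4 calls with weighted levels and 0 with direct arrays. Leaving out 1 RNA gave counts of 2 to 12 in GM-CSF, 1 to 12 in FI-Delta, 1 to 3 in V449E, 2 to 7 for FI-Delta against GM-CSF, 12 to 17 for V449E against FI-Delta, 0 to 1 for V449E against parental cells at 0 h and 0 to 4 for differences of responses. Fewer arrays or RNAs enter several of these settings; other causes were not tested. With 2 RNAs a condition and ratios alone, signal over background is unknown.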
